A study of Oryza sativa Indica Group with 8 samples.

Results

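Cellulose synthesis genes were followed in rice roots under drought: the cellulose synthase catalytic subunit genes CESA1 to CESA9 and BC1 (LOC4333114). They were found as the probe sets that the array's probe-to-gene annotation assigns to a listed gene alone, which gave 14 probe sets for 10 of 10 genes, out of 57194 probe sets tested and 17905 genes measured. The genes were divided by class into 4 secondary wall genes (CESA4, CESA7, CESA9 and BC1) and 6 primary wall genes (CESA1, CESA2, CESA3, CESA5, CESA6 and CESA8). The 8 arrays formed 4 groups of 2 biological replicates: drought-stressed and well-watered control roots of IR20, a shallow-rooted, semi-dwarf, high-yielding indica rice labelled drought susceptible, and stressed and control roots of Nootripathu, a deep-rooted, low-yielding indica landrace labelled drought tolerant. Each plant had a PVC pipe to itself under glass, and watering stopped at 40 days after sowing in the stressed plants, whose roots were taken when the leaves had rolled and dried. Soil was washed off control roots with de-ionised water but shaken off stressed roots by tapping, so that drought and this handling cannot be told apart. The labels do not say whether a replicate is 1 plant or a pool, each cultivar is 1 genotype of its type, and whole roots were taken, so that fewer cells of a type and less RNA per cell cannot be told apart.

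Cellulose is spun out at the plasma membrane by rosette-shaped complexes built of CESA proteins. One set of CESA proteins makes the cellulose of the thin primary wall that encloses growing cells, and another set makes that of the thick secondary wall laid down in xylem vessels and sclerenchyma fibres once growth has stopped. In rice, mutants of CESA4, CESA7 and CESA9 have brittle culms, and so do mutants of BC1 (brittle culm 1), which encodes a COBRA-like protein anchored to the outer cell surface that affects how cellulose is assembled in secondary walls.

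All values are signals on a log2 scale, as deposited after RMA, which corrects background, equalises the distribution of the arrays and summarises the probes of a probe set; a difference of 1 is a 2-fold difference. Signals of different probe sets depend on their probes and were not set against each other. Of several probe sets of a gene, the one highest on average was used. Differences carry the standard error (SE) of limma, and a gene passed at an adjusted p under 0.05 over all 57194 probe sets. Array medians lay between 5.29 and 5.35. Replicate 2 of stressed IR20 stood apart in the 3′ over 5′ excess of the poly-A spike-in transcripts, 5.32 on the log2 scale against 2.08 to 2.58 on the other 7 arrays, and in that of actin, 6.98 against 5.32 to 5.94. Without that array every member's drought call in IR20 and every call on the difference between cultivars was as given here, except that of CESA2 in IR20. The poly-A spike-ins themselves, added RNAs of known sequence, read higher on stressed than on control arrays, by 0.61 in IR20 and by 0.89 in Nootripathu. Values after scaling each array to them are given for the members wherever they change a call, and for the other lists as counts.

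The secondary wall genes fell under drought in IR20 and rose under drought in Nootripathu, 4 of 4 in each cultivar, where 17.1% of all probe sets fell in IR20 and 17.5% rose in Nootripathu. BC1 had the widest span of the 10 genes. On stressed IR20 arrays BC1 read 6.88 and 6.89, against 9.69 and 9.67 on control IR20 arrays. On stressed Nootripathu arrays it read 8.58 and 8.63, against 6.63 and 6.72 on control Nootripathu arrays. Both replicates of stressed IR20 and both of control Nootripathu lay at the low end, and in neither cultivar did the stressed and control arrays overlap. The difference was -2.80 ± 0.09 in IR20, a stressed signal 0.144 times that of controls (SE, n = 2 arrays per group, adjusted p = 3.77e-07), and 1.92 ± 0.09 in Nootripathu, 3.79 times (adjusted p = 3.12e-06). The drought effect in Nootripathu exceeded that in IR20 by 4.72 ± 0.13 (interaction, adjusted p = 4.90e-06).

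CESA4, a catalytic subunit of the secondary wall complex, gave signals of 10.41 and 10.60 in stressed IR20 roots and 11.86 and 11.85 in control IR20 roots. In Nootripathu the 2 stressed arrays gave 11.63 and 11.71 and the 2 control arrays 10.36 and 10.37. The stressed roots of one cultivar therefore lay near the control roots of the other, with control IR20 and stressed Nootripathu high. CESA4 fell by 1.35 ± 0.10 in IR20 (adjusted p = 2.16e-05) and rose by 1.30 ± 0.10 in Nootripathu (adjusted p = 3.59e-05), an interaction of 2.65 ± 0.15 (adjusted p = 3.37e-05). A second CESA4 probe set moved in the same directions, by -1.86 in IR20 and 0.69 in Nootripathu, and passed in both.

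CESA7, which belongs to the same complex, read 9.94 and 10.12 in stressed IR20 roots, against 11.65 and 11.74 in control IR20 roots. Stressed Nootripathu roots gave 10.47 and 10.87, against 9.85 and 10.01 in control Nootripathu roots. The difference of 0.40 between the stressed Nootripathu replicates was the widest between replicates for any of the 10 genes, yet both lay above both controls. CESA7 fell by 1.67 ± 0.15 in IR20 (adjusted p = 5.24e-05) and rose by 0.74 ± 0.15 in Nootripathu (adjusted p = 0.00576).

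CESA9, the remaining catalytic subunit of that complex, gave 7.58 and 7.70 in stressed IR20 roots and 8.42 and 8.69 in control IR20 roots. The stressed Nootripathu arrays read 7.88 and 8.0, and the control Nootripathu arrays 7.09 and 7.14. CESA9 fell by 0.91 ± 0.12 in IR20, the smallest fall of the class (adjusted p = 5.14e-04), and rose by 0.83 ± 0.12 in Nootripathu (adjusted p = 0.00108). Interactions of CESA7 and CESA9 were 2.41 ± 0.21 and 1.74 ± 0.17 (adjusted p = 2.22e-04 and 3.99e-04).

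**Figure D1:**
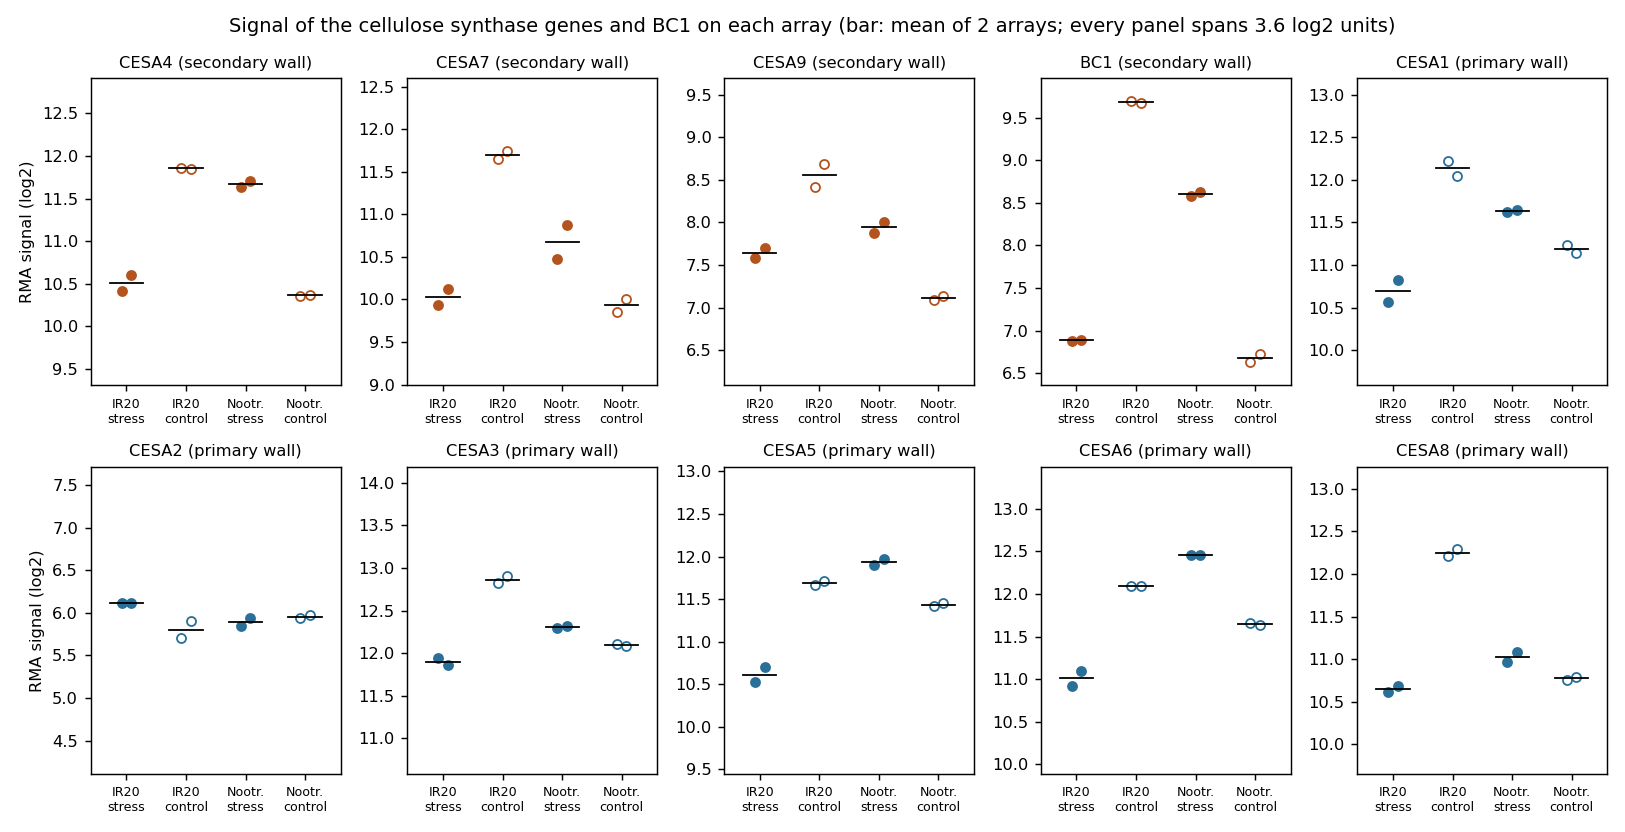
RMA signal (log2) of the 10 genes on each of the 8 arrays, 1 panel per gene, with points for the 2 replicates of stressed and control roots of each cultivar. The secondary wall genes sit high in control IR20 and stressed Nootripathu roots, for BC1 at 9.69 and 9.67 and at 8.58 and 8.63, and CESA2 stays between 5.70 and 6.12.

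Among the primary wall genes, 5 of 6 fell under drought in IR20 and 3 of 6 rose in Nootripathu, where 17.1% of all probe sets fell in IR20 and 17.5% rose in Nootripathu. CESA1, whose protein is counted among the core subunits of the primary wall complex, read 10.56 and 10.82 in stressed IR20 roots, against 12.22 and 12.05 in control IR20 roots. Stressed Nootripathu roots gave 11.62 and 11.65, against 11.23 and 11.14 in control Nootripathu roots. CESA1 fell by 1.44 ± 0.12 in IR20 (adjusted p = 3.88e-05) and rose by 0.45 ± 0.12 in Nootripathu (adjusted p = 0.0233). The rise in Nootripathu did not pass when any 1 of the 4 Nootripathu arrays was left out (adjusted p = 0.0722 to 0.134).

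CESA3 and CESA8 responded in IR20 without a passing change in Nootripathu. CESA3 signals were 11.94 and 11.86 in stressed IR20 roots and 12.82 and 12.91 in control IR20 roots, a fall of 0.96 ± 0.10 (adjusted p = 9.16e-05). In Nootripathu they were 12.30 and 12.32 under stress and 12.11 and 12.09 in controls, a difference of 0.21 ± 0.10 (adjusted p = 0.149). CESA8 fell further in IR20, to 10.62 and 10.68 under stress, against 12.21 and 12.29 in controls (-1.61 ± 0.10, adjusted p = 6.20e-06). Its Nootripathu arrays gave 10.97 and 11.08 under stress and 10.76 and 10.79 in controls (0.25 ± 0.10, adjusted p = 0.0973). For both genes the stressed Nootripathu arrays lay above the controls without overlap, and with a trended, robust prior both differences passed (adjusted p = 0.0102 for CESA3 and 0.0150 for CESA8). A second CESA3 probe set, given below, differed in the opposite direction in Nootripathu without passing. The drought effects of the 2 cultivars differed for both, by 1.17 ± 0.13 for CESA3 and 1.85 ± 0.14 for CESA8 (adjusted p = 8.37e-04 and 1.08e-04).

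CESA5 and CESA6, catalytic subunits of the primary wall class, had their highest signals in stressed Nootripathu roots on the deposited scale. On the spike-in scale control IR20 roots had the highest mean, but narrowly. Control Nootripathu roots differed from them there by -0.05 for CESA5 and -0.25 for CESA6 (SE 0.32, adjusted p = 0.939 and 0.72). CESA5 read 10.53 and 10.70 in stressed IR20 roots, against 11.67 and 11.71 in control IR20 roots, and 11.90 and 11.97 in stressed Nootripathu roots, against 11.42 and 11.45 in control Nootripathu roots. CESA6 read 10.92 and 11.10 in stressed IR20 roots, against 12.10 and 12.10 in control IR20 roots, and 12.46 and 12.46 in stressed Nootripathu roots, against 11.66 and 11.64 in control Nootripathu roots. All 4 groups of each gene were apart from each other. CESA5 fell by 1.08 ± 0.10 in IR20 (adjusted p = 7.00e-05) and rose by 0.49 ± 0.10 in Nootripathu (adjusted p = 0.00627). CESA6 fell by 1.09 ± 0.10 in IR20 (adjusted p = 6.02e-05) and rose by 0.81 ± 0.10 in Nootripathu (adjusted p = 4.17e-04). That rise was of similar size to the one of the secondary wall gene CESA7 (0.74 ± 0.15), against which it was not tested.

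CESA2, placed in the primary wall class, ran apart from the other 9 genes. It read 6.12 and 6.11 in stressed IR20 roots, against 5.70 and 5.90 in control IR20 roots, and 5.85 and 5.94 in stressed Nootripathu roots, against 5.94 and 5.97 in control Nootripathu roots. Its signals lay just above the level of probe sets for reporter genes that rice lacks, whose 95th percentile was 4.98 to 5.43 over the arrays. The rise of 0.32 ± 0.11 in IR20 passed narrowly (adjusted p = 0.0466) and did not pass without replicate 2 of stressed IR20 (adjusted p = 0.0793), without any other single array except replicate 2 of control IR20, or when the model held only the 4 IR20 arrays (adjusted p = 0.132). The difference in Nootripathu was -0.06 ± 0.11 (adjusted p = 0.745), and the interaction of -0.37 ± 0.15 did not pass (adjusted p = 0.122).

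Second probe sets were present for CESA1, CESA2 and CESA3 besides CESA4. That of CESA1 (4.18 to 4.91) lay at the reporter level on every array and passed in neither drought comparison. That of CESA2 (4.17 to 5.59) passed in Nootripathu with a fall of 0.93 (adjusted p = 0.00298), to 4.49 and 4.47 under stress, at the reporter level. This CESA2 probe set also passed for the interaction (-0.88, adjusted p = 0.0347). In controls it was higher in Nootripathu than in IR20 (1.06, adjusted p = 0.00282), where control IR20 arrays were at the reporter level too. The second probe set of CESA3 gave 6.17 and 4.28 on the stressed IR20 arrays, against 6.91 and 6.72 on the control IR20 arrays. The low value belongs to the array that stands apart, and the 2 stressed replicates of this probe set differed by more than the fall of 1.58 ± 0.50 (adjusted p = 0.0376). In Nootripathu this CESA3 probe set gave 6.45 and 6.78 under stress and 7.04 and 7.3 in controls. That difference of -0.56 ± 0.50 did not pass (adjusted p = 0.467) and ran opposite to that of the probe set used. Its difference between cultivars in controls (0.36 ± 0.50, adjusted p = 0.693) was also opposite in sign and did not pass.

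Counted together, 9 of the 10 genes fell under drought in IR20 and 1 rose, where 17.1% of all probe sets fell and 21.0% rose. In Nootripathu 7 rose, none fell and 3 did not pass, where 17.5% of all probe sets rose and 14.5% fell. The median difference in IR20 was -1.51 over the secondary and -1.08 over the primary wall genes, against 0.10 over all probe sets. In Nootripathu it was 1.07 over the secondary and 0.35 over the primary wall genes, against -0.00 over all probe sets. Drought effects were more positive in Nootripathu than in IR20 for 9 of the 10 genes, all but CESA2, where 10.6% of all probe sets were more positive and 8.99% more negative. A fall in IR20 together with a rise in Nootripathu was seen for 7 of the 10 genes (BC1, CESA1, CESA4, CESA5, CESA6, CESA7 and CESA9) and for 775 probe sets, 1.36% of those tested.

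The rises in Nootripathu depended on scaling to the spike-ins, and the falls in IR20 did not. Median centring changed no member's call but that of CESA2 in IR20. The spike-ins differed between replicates, with means of 11.09 and 10.51 in stressed IR20 and 11.09 and 10.67 in stressed Nootripathu roots. Drought differences of the members carried an SE of 0.32 on that scale. A lost call there can thus reflect a wider SE as well as a smaller difference. Scaled to the spike-ins, BC1 was the 1 gene of 10 that still rose in Nootripathu (1.03, adjusted p = 0.00316). CESA4 kept a positive difference that did not pass (0.41, adjusted p = 0.222), and CESA7, CESA9, CESA1, CESA5 and CESA6 had differences of -0.15, -0.07, -0.44, -0.40 and -0.08, none of which passed. CESA8 turned to -0.65 without passing (adjusted p = 0.0518). CESA2 and CESA3 fell on that scale, by 0.95 and 0.69 (adjusted p = 0.00581 and 0.0394). The same 9 genes fell in IR20 on both scales. The interaction still passed for 7 genes, and no longer for CESA3 (0.88, adjusted p = 0.302) and CESA5 (1.28, adjusted p = 0.0650). The median of all probe sets was itself moved by that scaling, to -0.51 in IR20 and -0.90 in Nootripathu, so that relative to it all members but CESA2 lay above the median probe set in Nootripathu.

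**Figure D2:**
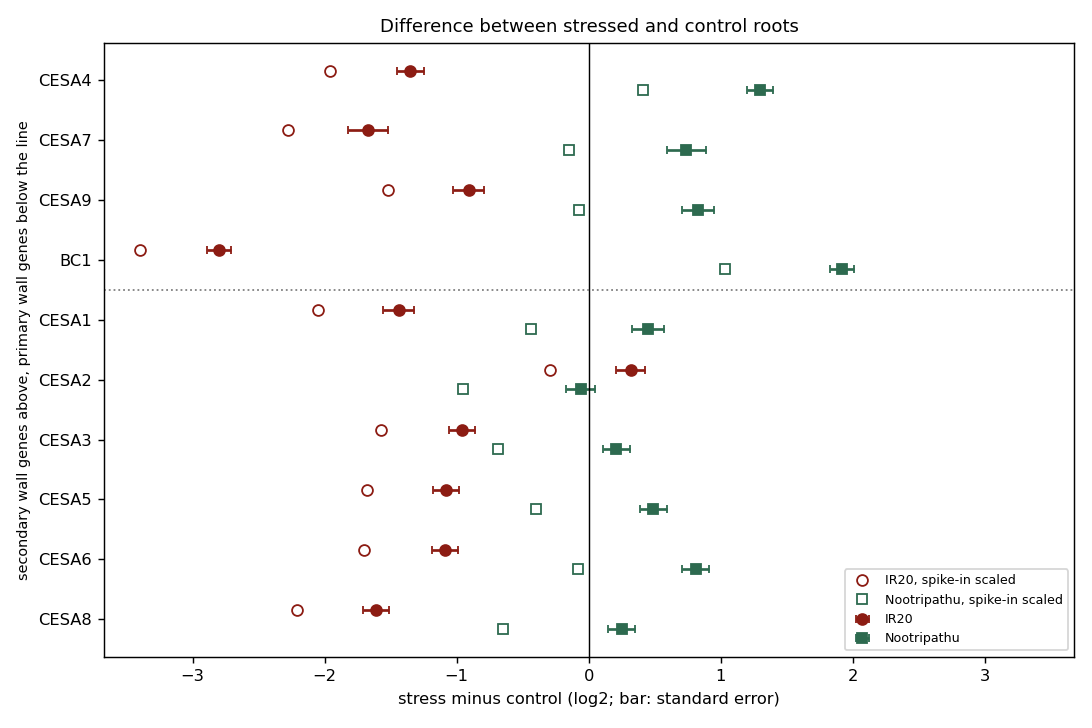
Stress minus control (log2) for each gene in IR20 (circles) and Nootripathu (squares), filled with SE bars for the deposited scale and open for arrays scaled to the poly-A spike-ins. In IR20 all genes but CESA2 lie left of 0 on both scales, and in Nootripathu 7 genes that rose on the deposited scale are reduced to 1, BC1 at 1.03, on the spike-in scale.

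Compared between cultivars, 7 of the 10 genes were higher in Nootripathu than in IR20 under drought and lower in Nootripathu than in IR20 with water. In control roots 8 of 10 were lower in Nootripathu and none higher, where 10.9% of all probe sets were lower and 8.38% higher. BC1 was lower by 3.01 on the log2 scale (-3.01 ± 0.09, adjusted p = 7.09e-07), CESA7 by 1.76 (-1.76 ± 0.15, adjusted p = 1.12e-04) and CESA4 by 1.49 (-1.49 ± 0.10, adjusted p = 3.87e-05). CESA8 and CESA9 followed at -1.47 ± 0.10 and -1.44 ± 0.12, and CESA1, CESA3 and CESA6 at -0.95, -0.76 and -0.45. CESA5 (-0.25, adjusted p = 0.135) and CESA2 (0.16, adjusted p = 0.384) did not pass, although CESA5 did with the trended, robust prior (adjusted p = 0.0195). The call on CESA6 was lost without any 1 of the 4 control arrays, at differences of -0.46 to -0.44. On the spike-in scale CESA1 (-0.75), CESA3 (-0.56) and CESA6 (-0.25) no longer passed (SE 0.32, adjusted p = 0.158, 0.401 and 0.72). This left BC1, CESA4, CESA7, CESA8 and CESA9.

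Under drought 8 of 10 genes were higher in Nootripathu and none lower, where 10.7% of all probe sets were higher and 11.4% lower. BC1 exceeded IR20 by 1.71 ± 0.09 (adjusted p = 1.18e-05), CESA6 by 1.45 ± 0.10 (adjusted p = 4.02e-05), CESA5 by 1.32 ± 0.10 (adjusted p = 7.16e-05) and CESA4 by 1.16 ± 0.10 (adjusted p = 1.57e-04). CESA1 (0.94), CESA7 (0.65), CESA3 (0.41) and CESA8 (0.38) also passed, whereas CESA9 (0.30, adjusted p = 0.121) and CESA2 (-0.22, adjusted p = 0.185) did not. The first 4 named remained on the spike-in scale and the other 4 did not. There CESA1 differed by 0.86, CESA7 by 0.56, CESA3 by 0.32 and CESA8 by 0.30 (SE 0.32, adjusted p = 0.0766, 0.416, 0.772 and 0.805). Leaving out replicate 2 of stressed Nootripathu took the count to 5, with CESA3, CESA7 and CESA8 lost. CESA8 was also lost without replicate 1 of stressed Nootripathu, replicate 1 of stressed IR20 or either control Nootripathu array, CESA3 without the first of these and CESA7 without the second. The 7 genes that passed in both directions were BC1, CESA1, CESA3, CESA4, CESA6, CESA7 and CESA8, and 1111 probe sets, 1.94% of those tested, did so.

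**Figure D3:**
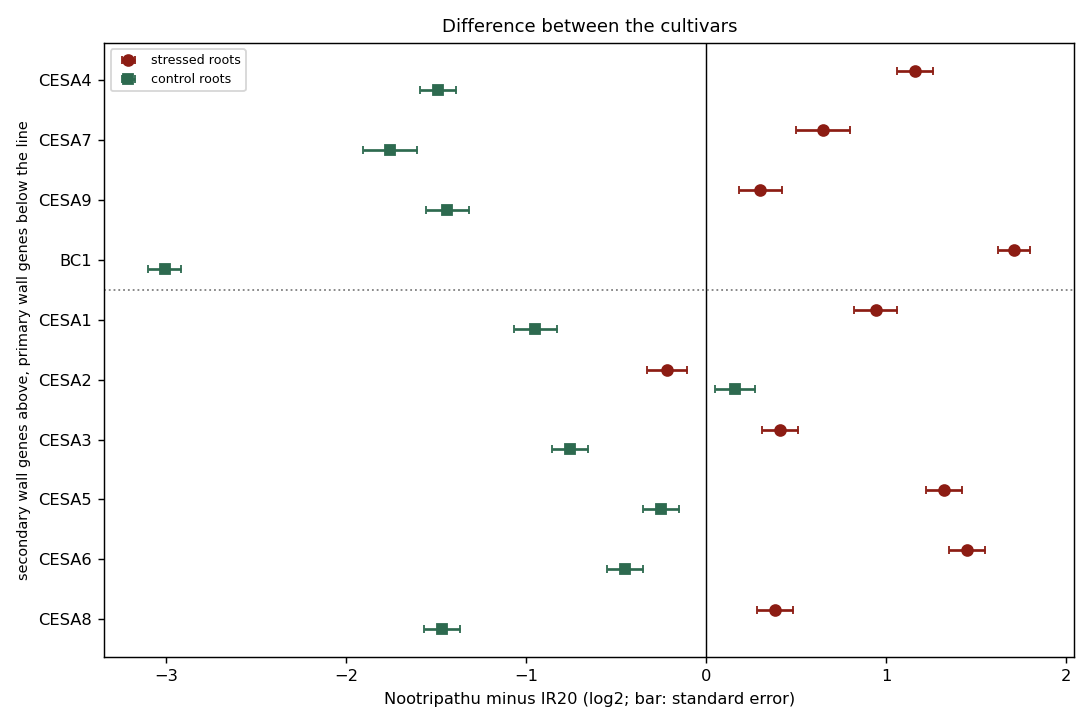
Nootripathu minus IR20 (log2, with SE bars) for each gene in stressed and in control roots. For BC1 the difference is 1.71 under stress and -3.01 in controls; CESA5 and CESA6 lie furthest right among the primary wall genes under stress, at 1.32 and 1.45.

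The order of the 4 groups, by the probe set used for each gene, differed between the classes. Each of the 4 secondary wall genes ran from control IR20, the highest, through stressed Nootripathu and stressed IR20 to control Nootripathu, the lowest. Neighbours in that order did not overlap, except that stressed IR20 and control Nootripathu did for CESA7. Those 2 groups were not tested against each other, and for CESA4 they lay close, at 10.41 and 10.60 against 10.36 and 10.37. With 2 arrays per group a lack of overlap is no test, and its share over all probe sets was not counted. The second CESA4 probe set had another order, with stressed IR20 lowest at 8.88 and 8.69, below control Nootripathu at 9.17 and 9.29, as in CESA1, CESA3 and CESA8. Among the primary wall genes none had its lowest mean in control Nootripathu and 5 of 6 had it in stressed IR20, where 24.3% and 21.4% of all probe sets were lowest in those groups. CESA1, CESA3 and CESA8 ran from control IR20 through stressed and control Nootripathu to stressed IR20, and CESA5 and CESA6 from stressed Nootripathu through control IR20 and control Nootripathu to stressed IR20. On the spike-in scale this split was not seen: stressed IR20 was lowest for all 4 secondary wall genes and for 5 of 6 primary wall genes. Control IR20 had the highest mean for CESA5 and CESA6 too, though it exceeded control Nootripathu by less than the SE of 0.32.

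A balance between the classes that no scaling of an array can move is the mean of the secondary wall genes minus that of the primary wall genes on the same array, each gene set to its own mean over the 8 arrays. This balance was -0.10 and -0.07 in stressed IR20 roots and 0.60 and 0.64 in control IR20 roots. In Nootripathu it was 0.10 and 0.21 under stress and -0.73 and -0.64 in controls. Drought thus moved it by -0.71 in IR20 and by 0.84 in Nootripathu, against a largest SD of 0.08 between replicates. The cultivars differed by 0.24 under stress and by -1.30 in controls. Because the members were chosen with results known, these values are a description with no test.

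BC1 and CESA2 carried much of that movement in IR20. Without both, the balance was 0.19 and 0.23 in stressed IR20 roots and 0.23 and 0.34 in control IR20 roots, so that the drought difference there was -0.08. In Nootripathu it was -0.06 and 0.09 under stress and -0.54 and -0.46 in controls, a difference of 0.52. The difference between cultivars without both was -0.20 under stress, of opposite sign, and -0.79 in controls.

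**Figure D4:**
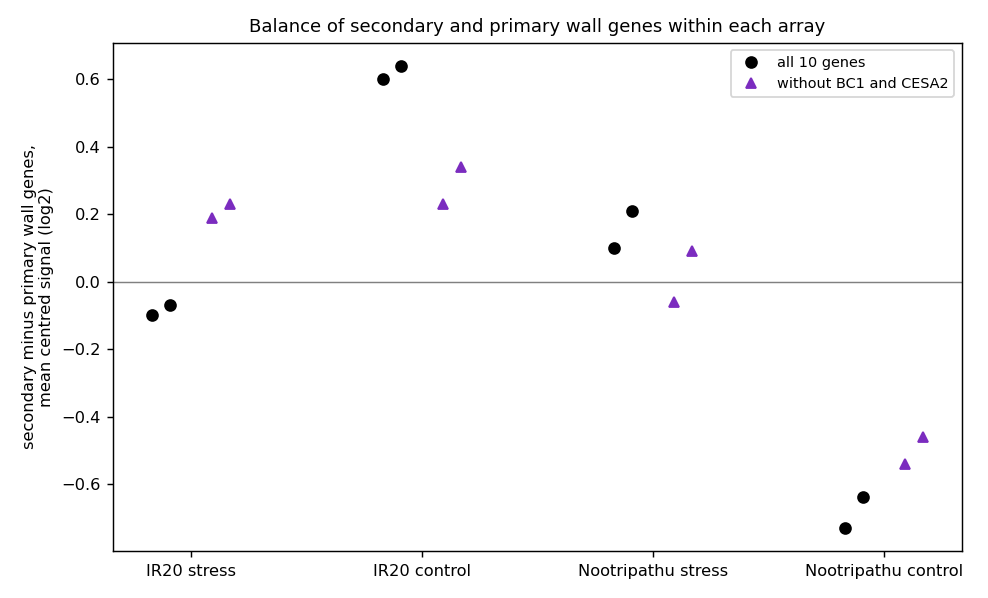
Mean centred log2 signal of the secondary wall genes minus that of the primary wall genes on each array, for all 10 genes and without BC1 and CESA2. Control Nootripathu roots are lowest in both versions, at -0.73 and -0.64 and at -0.54 and -0.46, and the gap between stressed and control IR20 roots seen with all 10 genes is reduced to -0.08 without BC1 and CESA2.

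The members were also compared by the root mean square (RMS) difference of their profiles over the 8 arrays, each gene set to its own mean, in which a smaller value means a closer profile. The arrays share their groups, so these values carry no test. CESA5 and CESA6 were the closest pair at 0.12 (log2), and CESA5 was the 2nd nearest of 17904 other genes to CESA6. CESA7 and CESA8 followed at 0.20, across the classes, and CESA1 and CESA3 at 0.23. Within the secondary wall class CESA7 and CESA9 differed by 0.28, CESA4 and CESA9 by 0.31 and CESA4 and CESA7 by 0.32. Some pairs across the classes were as close, with CESA9 and CESA3 at 0.30, CESA4 and CESA1 at 0.32 and CESA9 and CESA8 at 0.32. Others were not, such as CESA7 and CESA5 at 0.60. BC1, with its larger span, was nearest to CESA7 (0.59) and CESA4 (0.61), and BC1 and CESA2 were furthest apart at 1.34.

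**Figure D5:**
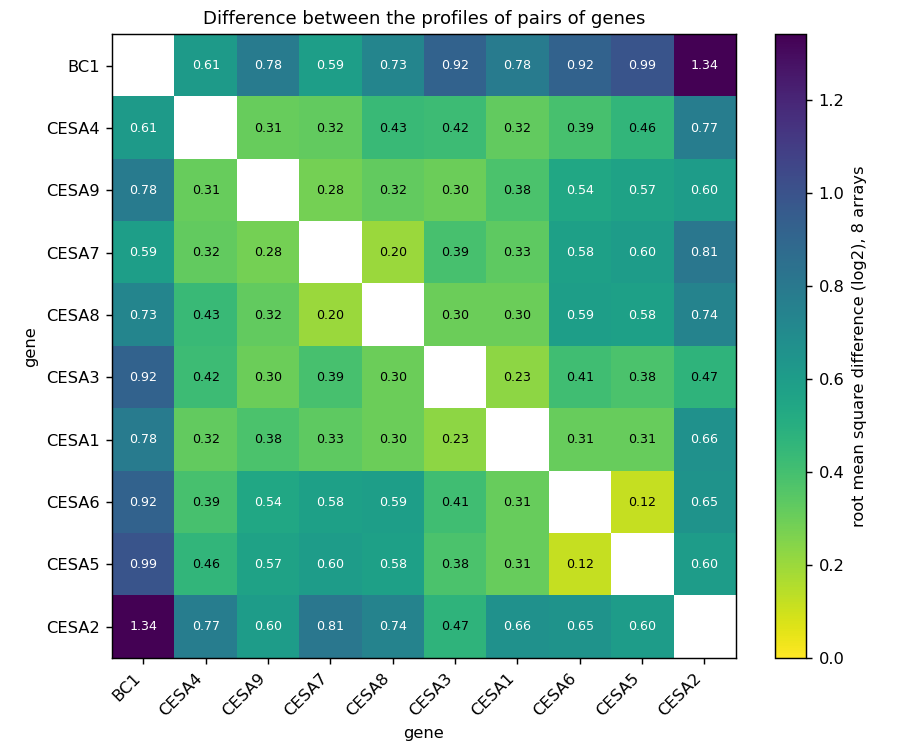
RMS difference (log2) between the centred profiles of each pair of the 10 genes over the 8 arrays, with a darker or lighter cell for a larger or smaller difference as the colour bar gives. CESA5 and CESA6 form the closest pair at 0.12 and BC1 and CESA2 the most distant at 1.34.

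Of the 17895 genes outside the set, the named genes closest to the mean profile of the secondary wall genes were ATCase (RMS 0.20), an aspartate carbamoyltransferase gene of pyrimidine synthesis, ENR (0.21), Hox21 (0.22), a homeobox gene, BGLU8 (0.23), a beta-glucosidase gene, and C3H9 (0.24), a zinc finger gene. The BGLU8 difference was -1.45 in IR20 and 1.04 in Nootripathu, and that of C3H9 was -1.20 and 1.17. Hox21 was read by a probe set that may match several transcripts, with group means of 4.68 to 6.04, near the reporter level. Closest to the primary wall genes were TubA (0.08), the alpha-tubulin gene whose protein builds microtubules, EXLA3 (0.08), an expansin-like gene, KIN12E (0.10), a kinesin gene, TDC2 (0.13) and STT3-A (0.13). TubA fell by 1.08 in IR20 and differed by 0.30 in Nootripathu (adjusted p = 0.0631), while EXLA3 fell by 0.94 in IR20 and rose by 0.49 in Nootripathu.

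Other genes of wall polysaccharide synthesis did not all follow the CESA genes. Of 9 xylan synthesis genes measured, 7 fell and 2 rose in IR20 (median -1.08), and 2 fell and 2 rose in Nootripathu (median -0.02). Over all probe sets 17.1% fell and 21.0% rose in IR20, and 14.5% fell and 17.5% rose in Nootripathu. The counts in Nootripathu thus lay near those shares. GT43A, of the glycosyltransferase family that extends the xylan backbone, read 6.91 and 6.78 in stressed IR20 roots, against 9.66 and 9.61 in control IR20 roots, and 8.66 and 8.66 in stressed Nootripathu roots, against 7.50 and 7.62 in control Nootripathu roots. GT43A thus fell by 2.79 ± 0.10 in IR20 and rose by 1.10 ± 0.10 in Nootripathu (adjusted p = 5.20e-07 and 8.38e-05), with an interaction of 3.89 ± 0.14 (adjusted p = 8.25e-06). GT43H fell in both cultivars (-1.75 in IR20 and -1.23 in Nootripathu), and GT43G rose in both (1.22 and 0.90). On the spike-in scale none of the 9 rose in either cultivar, and 7 fell in IR20 and 6 in Nootripathu. Of all 57194 probe sets, 16764 passed in IR20 and 43922 in Nootripathu on that scale, in either direction. Their medians were -0.51 and -0.90, so the falls in Nootripathu do not set these genes apart.

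Of 11 cellulose synthase-like genes of the CSLD, CSLE, CSLF and CSLH families, 6 fell and none rose in IR20 (median -0.70). In Nootripathu 5 fell and 1 rose (median -0.41). Over all probe sets 17.1% fell and 21.0% rose in IR20, and 14.5% fell and 17.5% rose in Nootripathu. CSLF6, which makes the mixed-linkage glucan of grass walls, gave 9.07 and 8.72 in stressed IR20 roots and 11.04 and 10.96 in control IR20 roots, a fall of 2.11 ± 0.13 (adjusted p = 7.17e-06). In Nootripathu CSLF6 gave 10.40 and 10.52 under stress and 10.07 and 10.09 in controls, a difference of 0.38 ± 0.13 that did not pass (adjusted p = 0.0613), but did without replicate 2 of stressed IR20 (adjusted p = 0.0137). CSLF7 fell in both cultivars (-2.83 in IR20 and -0.97 in Nootripathu), and CSLF8 fell in IR20 (-2.37). CSLF8 read 4.88 and 4.59 in stressed IR20 roots and 4.01 to 4.63 in Nootripathu roots, at the reporter level, so that its passing difference of -0.43 in Nootripathu is one between signals near background. CSLD1, known in rice for root hair growth, fell by 1.28 in IR20 and by 1.11 in Nootripathu, to signals of 4.26 to 5.18 under stress, at the reporter level. The gene that rose in Nootripathu was CSLE1 (0.66), and on the spike-in scale none of the 11 rose and 9 fell there. On that scale 43922 of all 57194 probe sets passed in Nootripathu, in either direction, with a median of -0.90.

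The 6 sucrose synthase genes, whose enzymes can supply UDP-glucose to cellulose synthesis, moved alike in direction in both cultivars. SUS3 and SUS4 rose and SUS1, SUS2, SUS5 and SUS6 fell, on the deposited and on the spike-in scale. On the deposited scale 17.1% of all probe sets fell and 21.0% rose in IR20, and 14.5% fell and 17.5% rose in Nootripathu. SUS4 rose by 4.11 in IR20 and by 3.76 in Nootripathu, and SUS3 by 2.73 and 1.93. SUS1 fell by 2.19 in IR20 and by 0.57 in Nootripathu, and the differences of SUS5 were -1.68 and -2.25. Among 3 other proteins of cellulose synthesis, GLU2, a KORRIGAN-type endoglucanase gene, fell by 1.43 in IR20 and differed by 0.15 in Nootripathu (adjusted p = 0.300), while GLU1 rose by 1.06 in IR20 and KOB1 by 0.41 in IR20 and 2.00 in Nootripathu. On the spike-in scale GLU1 and KOB1 no longer rose in IR20, where 1 of the 3 fell and none rose. In Nootripathu 1 rose and 2 fell on that scale, where the median of all probe sets was -0.90. Of the 3 COBRA-like relatives of BC1 measured, BC1L6 rose by 0.41 in IR20 and by 1.25 in Nootripathu on the deposited scale, where on the spike-in scale none of the 3 rose, and BC1L9 fell by 0.72 and 1.07. The BC1L6 difference in IR20 was 0.25 without replicate 2 of stressed IR20 and did not pass (adjusted p = 0.105). BC1L2, the neighbour of BC1 in the RefSeq gene table, read 3.82 to 5.37, near the reporter level. None of the secondary wall regulators sought was found by symbol.

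Markers of dividing cells fell with the members in IR20 and were divided in Nootripathu. Of 17 such genes (cyclins, CDKB kinases, MCM helicase subunits and PCNA) 14 fell and 1 rose in IR20 (median -2.73). In Nootripathu 6 rose and 6 fell (median 0.14). Over all probe sets 17.1% fell and 21.0% rose in IR20, and 14.5% fell and 17.5% rose in Nootripathu. The drought effect was more positive in Nootripathu than in IR20 for 13 of 17, and none was more negative. Of all probe sets 10.6% were more positive and 8.99% more negative. On the spike-in scale 14 fell in IR20 and 10 in Nootripathu, none rose, and the drought effect was more positive in Nootripathu for 11. Of all 57194 probe sets, 16764 passed in IR20, 43922 in Nootripathu and 3227 for the interaction on that scale, in either direction. The medians of all probe sets were -0.51 in IR20 and -0.90 in Nootripathu. The log2 of their summed signal was 10.19 and 10.67 in stressed IR20 roots and 12.42 and 12.44 in control IR20 roots, and 11.52 and 11.58 in stressed Nootripathu roots and 11.40 and 11.39 in control Nootripathu roots. Their part in the members' differences was not tested. Of 7 root markers, among them the silicon transporter genes LSI1 and LSI2, all fell in IR20 and 6 fell in Nootripathu, with log2 summed signals of 13.76 to 13.84 over the stressed and 15.15 to 15.37 over the control arrays of both cultivars. A root marker of high signal was thus read in every group, the highest gene mean being 13.46 to 14.53, and it made up most of the sum. Not every root marker was: SCR1 had means of 4.53 in stressed IR20 and 4.40 in stressed Nootripathu roots, at the reporter level. NRT2.3 had a mean of 5.21 in stressed IR20 roots, near that level. Under stress NRT2.3 was higher in Nootripathu than in IR20 by 5.64 and LSI2 by 3.21, which the sums do not show. The 3 photosynthetic shoot markers found (RBCS, PETC and CAB2R) had group means of 4.97 to 7.54, with PETC lower under stress in Nootripathu and none past the threshold in IR20. Without replicate 2 of stressed IR20, PETC (-0.51, adjusted p = 0.0215) and CAB2R (-0.86, adjusted p = 0.0122) were lower under stress in IR20. On the spike-in scale 2 of the 3 fell in IR20 and 3 in Nootripathu, and 7 of 7 root markers fell in each cultivar.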

How the data were processed

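Total RNA from roots was hybridised to Affymetrix rice arrays, 1 per sample, and per the submitters' processing notes the authors used Affymetrix Expression Console 3.0 and RMA. The deposited values are log2 signals; near-equal quantiles of the 8 arrays fit that normalisation. Whether replicates came from separate plants or pools is not given in the sources used here, so p-values measure the spread between these samples. The number of arrays, 2 per group, limits the precision.

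The 123 Affymetrix control and 64 reporter probe sets were left out, which left 57194. GEO's platform annotation gave exactly 1 gene for 22436 of them, several for 95 and none for 34663. All 17905 gene IDs matched the RefSeq gene table, and names were taken from it. Its assembly was used for names and neighbours only. The probe set of highest mean signal stood for a gene.

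One linear model with a mean per group was fitted to all arrays with limma 3.58.1 in R 4.3.3 (lmFit and eBayes), with 4 residual and 3.88 prior degrees of freedom. Adjustment was by Benjamini and Hochberg over all 57194 probe sets. The script was tested on simulated data. An exact permutation test of 2 against 2 arrays cannot pass 0.05 and was not made.

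Members, gene lists and tests were chosen with earlier results of these data known. All 10 members were named; from other lists, the genes with the largest differences past the threshold in the drought comparisons; and the 5 named genes nearest each class by profile. Alternatives were a replicate block, only the arrays compared, a low-signal filter, spike-in scaling (12 probe sets for 3′ ends), median centring, a trended robust prior, other choices of probe set, a minimum difference of 2-fold, and each array left out in turn. No sequence is printed, since no sequence table was used here.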

Additional observations from a re-analysis of the deposited data

Results flagged for a closer look

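For 9 of the 10 genes the drought effect differed between the cultivars by the interaction test of limma over all probe sets. The effect in Nootripathu minus that in IR20, on the log2 scale, was 4.72 for BC1, 2.65 for CESA4, 2.41 for CESA7 and 1.74 for CESA9 among the secondary wall genes. Among the primary wall genes it was 1.90 for CESA6, 1.89 for CESA1, 1.85 for CESA8, 1.57 for CESA5 and 1.17 for CESA3. In 7 of these genes the effects had opposite, passing directions in the 2 cultivars, and in CESA3 and CESA8 only the fall in IR20 passed. On the spike-in scale BC1 alone kept a passing rise in Nootripathu (1.03). There the interactions of CESA3 and CESA5 no longer passed (adjusted p = 0.302 and 0.0650). No group has 4 or more arrays, so single arrays were not searched for values far from their group.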

How the results depend on the processing

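The 9 falls in IR20 kept their direction under all alternatives in which the gene was measured, and passed in all but the 2-fold minimum, which left 7. CESA3 could not be measured without probe sets that may match several transcripts, which took the falls to 8. The 1 rise in IR20, CESA2, went to 0 genes under the replicate block, only the arrays compared, spike-in scaling, median centring, the trended robust prior, the mean of a gene's probe sets and the 2-fold minimum, and to between 0 and 1 when 1 array was left out. The labels do not say whether samples of equal replicate number belong together, and the main model did not pair them. Correlations of replicate differences between groups ran from -0.0144 to 0.2073, which cannot settle this, and the replicate block changed no other member's call. Spike-in scaling took the rises in Nootripathu to 1 (falls 2), the genes higher in Nootripathu under stress to 4 and those lower in controls to 5, and reversed the sign for CESA2 in IR20 (-0.29) and for CESA1 (-0.44), CESA3 (-0.69), CESA5 (-0.40), CESA6 (-0.08), CESA7 (-0.15), CESA8 (-0.65) and CESA9 (-0.07) in Nootripathu; the construction of the scale, a shift common to all genes of an array, accounts for these. A 2-fold minimum left 2 rises in Nootripathu, 4 genes higher under stress and 5 lower in controls. With only the arrays compared, 5 genes were higher in Nootripathu under stress, and between 5 and 8 with 1 array left out. With the mean of a gene's probe sets, CESA2 gave 1 fall in Nootripathu, 1 negative interaction and 1 gene higher in control Nootripathu roots, and calls were lost for CESA1's rise in Nootripathu (0.03), CESA1 and CESA3 in controls (-0.31 and -0.20) and the CESA3 interaction (1.10, adjusted p = 0.0765). The low-signal filter changed no member's call.

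The class balance moved in IR20 from -0.71 to -0.48 with medians, -0.81 with gene means taken without the array in question, -0.80 with mean probe sets, and, as alternatives chosen after seeing the data, -0.45 without CESA2, -0.33 without BC1 and -0.08 without both. The Nootripathu value of 0.84 became 0.96, 0.97, 0.76, 0.60 and 0.52 under the last 5 of these. Between cultivars under stress it became 0.06 without CESA2, -0.01 without BC1 and -0.20 without both. In controls -1.30 became -1.08, -1.49, -1.57, -1.15, -0.94 and -0.79 in the order given for IR20. With 1 array left out the values ranged over -0.73 to -0.68, 0.79 to 0.89, 0.19 to 0.30 and -1.34 to -1.26.

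Over all probe sets 21803 passed in IR20 and 18270 in Nootripathu, 11202 for the interaction, and 12606 and 11048 between cultivars under stress and in controls. Spike-in scaling gave 43922 in Nootripathu, 3227 for the interaction and 4386 and 4710 between cultivars. The 2-fold minimum gave 8713, 7200, 5141, 3587 and 3763 in the same order. The comparison under stress gave 7504 with only the arrays compared and 7273 without replicate 1 of stressed Nootripathu, and with 1 array left out the interaction gave 6510 to 14163 and the comparison in controls 6421 to 14498. The causes were not tested otherwise.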
